A study of Mus musculus with 8 samples.

Results

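Bile acids are made from cholesterol in hepatocytes, and the 9 genes described here carry out the main steps of that work. Cyp7a1, Cyp8b1 and Cyp27a1 encode sterol hydroxylases of bile acid synthesis, Slc27a5 and Baat encode the enzymes that couple bile acids to coenzyme A and then to an amino acid, and Abcb11, Abcb4 and Slc10a1 encode transporters of the hepatocyte membrane. Nr0b2 encodes SHP, a nuclear receptor without a DNA-binding domain. The members were chosen by name. RNA polymerase II (Pol II) signal was read from paired-end tags (PETs) of a ChIA-PET experiment with ends on the GRCm38 span of each gene or within 2.5 kb. No input or control was used here, so PET ends mix Pol II occupancy with background. The members are 9 of the 21887 protein-coding RefSeq genes on nuclear chromosomes, and 1241 PETs, 0.0451% of all nuclear PETs, had an end on at least 1 of them.

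In ChIA-PET, crosslinked chromatin is immunoprecipitated, DNA ends held in one complex are ligated through a linker, and a short tag is read from either side of the junction, so that each PET marks 2 positions in the genome. Wild-type C57BL/6 mice aged 3 to 6 months, on a cycle of 12 h light and 12 h dark with free access to food, gave livers at ZT06, mid-day, or ZT18, mid-night, and chromatin from 3 to 7 livers was pooled before Pol II was precipitated with the antibody 8WG16. The labels describe 8 libraries, 4 at each time: JM08 (4 libraries) and JM12 (2 libraries) were crosslinked with 1.5 mM EGS, a protein-to-protein crosslinker, and 1% formaldehyde, and JM11 (2 libraries) with 1% formaldehyde alone. The deposited table names the experiment of each PET but neither library nor time point, so each of the 3 experiments is 1 pool of day and night chromatin, day against night was not analysed here, and intervals below cover counting error only. In whole liver, fewer cells of a type and less Pol II per cell cannot be told apart.

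The classical pathway of bile acid synthesis opens with Cyp7a1, its rate-limiting enzyme, and Cyp8b1 sets the share of cholic acid among the products. Cyp27a1 opens the alternative pathway and hydroxylates the sterol side chain. Bile acids that return from the intestine activate the receptor FXR, which induces Nr0b2 and Abcb11, and SHP in turn represses Cyp7a1 and Cyp8b1. Several of these genes are textbook examples of daily rhythm in liver transcription, Cyp7a1 above all.

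Depth was 474466 nuclear PETs in JM08, 1438852 in JM11 and 837971 in JM12, and each member held between 20 and 134 PET ends per experiment. Density is given relative to the nuclear mean, so that 1 is the genome average. It is PET ends per base over the gene and its 2.5 kb flanks divided by PET ends per base of all nuclear chromosomes. Over all genes longer than 3 kb with a listed strand, its mean in JM08 was 7.55 within 1 kb of the start and 1.11 in the body. Windows of short genes hold a larger share of start, so densities of genes of different length are not directly comparable. Intervals are exact 95% Poisson intervals, and a gene is called raised at a relative density of at least 2. Both ends of a PET can fall on the same gene, and in JM08 the 524 member ends came from 439 PETs. The intervals of densities and of their ratios treat ends as independent and can therefore be too narrow. Of 5 hepatocyte markers, 4 (Apoa1, Alb, Tat and Ttr) were raised in all 3 experiments, as were 5.02% of protein-coding genes. Cps1 reached 10.7, 1.42 and 4.13 in JM08, JM11 and JM12. Of the markers listed for bile duct, Kupffer, endothelial, stellate and intestinal cells, only the bile duct marker Sox9 was raised in all 3, at 5.58, 2.10 and 4.67, and none was at 0. In single pools, Cd5l (2.62) and Lrat (2.22) were raised in JM08, and Lyve1 (2.29) and Fgf15 (2.02) in JM12.

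Sequence upstream of the start is shown for the 4 members whose start, strand and motif matches the results return to. These are the 250 bases before the gene start from RefSeq GRCm38.p6, 5′ to 3′ on the strand of the gene, with motif matches in capitals and positions counted from the start: Cyp8b1 at chr9:121916306-121916555 (minus strand), Nr0b2 at chr4:133553126-133553375 (plus), Slc10a1 at chr12:80968706-80968955 (minus) and Abcb11 at chr2:69342617-69342866 (minus).
Cyp8b1: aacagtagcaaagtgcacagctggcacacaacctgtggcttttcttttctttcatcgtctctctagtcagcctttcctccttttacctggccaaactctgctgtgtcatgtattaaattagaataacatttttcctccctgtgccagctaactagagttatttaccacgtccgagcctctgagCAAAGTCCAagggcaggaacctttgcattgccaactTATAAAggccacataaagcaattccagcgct
Nr0b2: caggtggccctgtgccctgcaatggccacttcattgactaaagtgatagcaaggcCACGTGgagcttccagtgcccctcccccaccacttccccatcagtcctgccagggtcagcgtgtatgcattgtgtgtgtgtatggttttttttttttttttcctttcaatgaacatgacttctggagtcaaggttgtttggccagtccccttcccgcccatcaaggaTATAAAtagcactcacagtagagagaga
Slc10a1: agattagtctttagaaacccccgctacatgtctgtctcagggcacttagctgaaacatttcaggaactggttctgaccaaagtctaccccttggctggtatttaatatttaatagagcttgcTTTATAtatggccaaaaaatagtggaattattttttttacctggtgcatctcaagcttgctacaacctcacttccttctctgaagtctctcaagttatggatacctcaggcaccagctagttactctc
Abcb11: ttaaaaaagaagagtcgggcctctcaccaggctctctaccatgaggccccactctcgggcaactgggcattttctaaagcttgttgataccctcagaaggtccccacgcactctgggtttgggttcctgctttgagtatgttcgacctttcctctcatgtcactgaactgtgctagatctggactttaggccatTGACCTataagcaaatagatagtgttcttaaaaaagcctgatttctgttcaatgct
The promoter table, with windows of 300 bases, held entries for 6 of the 9 members. Cyp7a1, Slc27a5 and Baat were not among them. Cyp8b1 carried CAAAGTCCA, an HNF4A site, at -67, a word found in 0.475% of 32851 promoters, and TATAAA at -31. Nr0b2 carried TATAAA at -28 and the E-box CACGTG at -195. TATAAA was present in 13.6% and CACGTG in 7.15% of all promoters. In Slc10a1 TATAAA lay on the opposite strand at -128. Abcb11 carried AGGTCA, the core hexamer read by many nuclear receptors, on the opposite strand at -56, and a further entry of Slc10a1 carried it at -87, a hexamer present in 16.3% of promoters. CCAAT was matched in Cyp27a1 and Abcb4 and in 37.4% of promoters. No member window held the D-box in either of its forms searched, TTATGTAA or the variant written TTACGTAA. None held the monomer receptor site AAGGTCA, the HNF1 word GTTAAT, or a pair of inverted AGGTCA hexamers 1 base apart. Both strands were searched. The receptor hexamer is part of the monomer site and of the inverted pair, and a match is a description of the letters only.

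Cyp7a1 (chr4:6265612-6275632) held 48 PET ends in JM08, 29 in JM11 and 29 in JM12. Its relative density was 8.96 (95% interval 6.61 to 11.9) in JM08, 1.79 (1.20 to 2.56) in JM11 and 3.07 (2.05 to 4.40) in JM12. All 3 intervals lay above the genome average, and the gene ranked above 96.6%, 90.8% and 91.3% of protein-coding genes. The JM08 value stood above both other pools with intervals that did not overlap theirs.

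Cyp8b1 (chr9:121914356-121916305), the sterol 12-alpha-hydroxylase, held 44, 34 and 25 ends in JM08, JM11 and JM12. It was the densest of the 9 genes in every experiment, at 17.8 (12.9 to 23.8), 4.52 (3.13 to 6.32) and 5.71 (3.70 to 8.43). Among protein-coding genes its percentile was 99.2, 99.5 and 98.4. Cyp27a1 (chr1:74713148-74737897), the mitochondrial sterol 27-hydroxylase, held 60, 48 and 45 ends. Its relative density was 5.66 (4.32 to 7.28), 1.49 (1.10 to 1.98) and 2.40 (1.75 to 3.21), the lowest of the 3 hydroxylases in each pool.

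Slc27a5 (chr7:12988346-12998192), which encodes bile acyl-CoA synthetase, held 34, 28 and 22 ends, for relative densities of 6.42 (4.45 to 8.97), 1.74 (1.16 to 2.52) and 2.35 (1.47 to 3.56). Baat (chr4:49489416-49507915), the amino acid N-acyltransferase that acts after it, held 63, 31 and 21 ends. Its relative density was 7.52 (5.78 to 9.62) in JM08 but 1.22 (0.829 to 1.73) in JM11 and 1.42 (0.878 to 2.17) in JM12, where both intervals reached the genome average. Baat stood at percentile 95.5 in JM08 and at 55.8 and 52.1 in JM11 and JM12. The lncRNA Gm32894 lies within the Baat window over 15.995 kb and held 38, 18 and 17 of the ends counted for Baat, which cannot be assigned to either gene. A further lncRNA, Gm33009, overlapped the window by 0.351 kb and held 1 end.

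Slc10a1 (chr12:80953185-80968705), which encodes the sodium-dependent uptake transporter NTCP, held 106, 50 and 50 ends. Its relative density of 14.5 (11.9 to 17.5) in JM08, 2.25 (1.67 to 2.97) in JM11 and 3.87 (2.87 to 5.10) in JM12 was the highest of the 3 transporters in each pool. Abcb11 (chr2:69238282-69342616), the bile salt export pump, held 63, 116 and 134 ends over a far longer span. It was at 1.62 (1.24 to 2.07) in JM08, 0.981 (0.811 to 1.18) in JM11 and 1.95 (1.63 to 2.30) in JM12, and it was the only member whose density was not highest in JM08. Abcb4 (chr5:8893614-8959226), the canalicular phospholipid transporter, held 66, 90 and 76 ends and reached 2.62 (2.03 to 3.33), 1.18 (0.948 to 1.45) and 1.71 (1.35 to 2.14). Abcb4 lies 27.3 kb from its paralog Abcb1b, and the sources used here do not give how tags shared by similar sequences were placed. Its window holds the pseudogene Gm17936, with no end in any pool, and the lncRNA Gm31388, with 2, 14 and 11 ends.

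Nr0b2 (chr4:133553376-133556686) held 40, 32 and 20 ends. Its relative density was 13.5 (9.64 to 18.4) in JM08, 3.56 (2.44 to 5.03) in JM11 and 3.82 (2.33 to 5.90) in JM12. It was among the 3 densest members in every pool, with Cyp8b1 and Slc10a1.

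**Figure D1:**
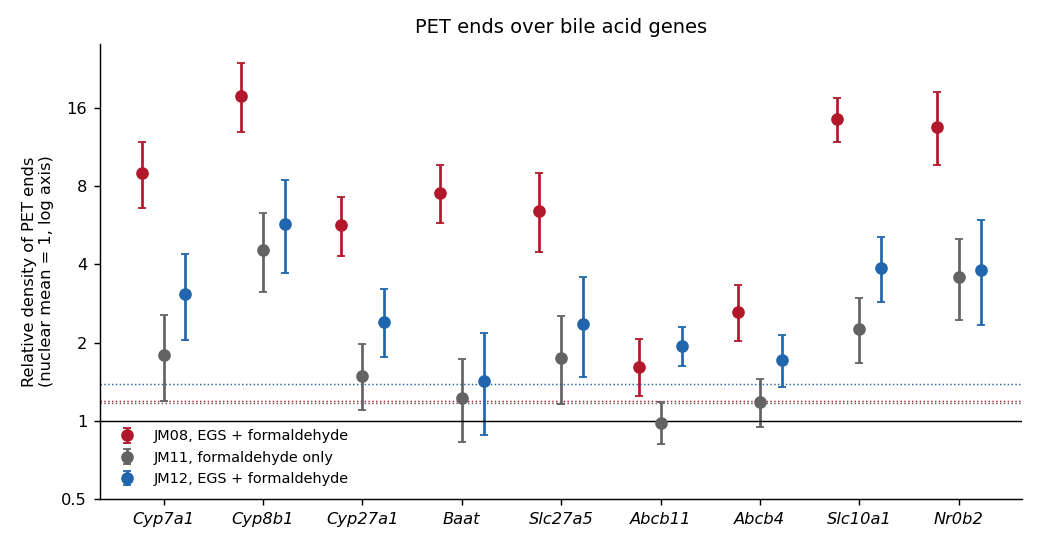
Relative density of PET ends over each of the 9 genes (y axis, log scale, nuclear mean = 1, solid line) in the 3 experiment pools, with exact 95% Poisson intervals; dotted lines mark the median protein-coding gene of each pool in the same colour. JM08 points lie highest for 8 of the 9 genes, and Abcb11 and Abcb4 lie lowest in JM08 and JM11.

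In JM08, 8 of the 9 members were raised, against 27.0% of protein-coding genes, with Abcb11 below the threshold. JM11 had 3 raised members, against 6.03% of genes, and JM12 had 6, against 24.1%. Cyp8b1, Slc10a1 and Nr0b2 were raised in all 3 pools, as were 5.02% of genes. With PETs of linker ATGT alone the count was 5, with PETs of linker TAAG alone it was 2, and without JM11 it was 6. With a 5 kb flank, or with the median protein-coding gene as the reference, it was 2, and Slc10a1 was the member lost. The share of all genes was not computed under these alternatives, so their counts cannot be set against it. The member median was 7.52 in JM08, 1.74 in JM11 and 2.40 in JM12, and the median protein-coding gene was at 1.19, 1.17 and 1.39. Cyp8b1 exceeded the lowest member 10.99-fold in JM08 (95% interval 7.30 to 16.4), 4.61-fold in JM11 (3.05 to 6.81) and 4.03-fold in JM12 (2.16 to 7.56). The members run from 1950 bp at Cyp8b1 to 104335 bp at Abcb11, and neither the order nor these ratios were adjusted for length. Between neighbours in the order, 2 of 8 steps in JM08 had a ratio interval above 1, from Cyp27a1 down to Abcb4 and from Abcb4 down to Abcb11. No step did so in JM11 or JM12.

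The table also gives the linker of each PET, ATGT or TAAG, whose link to libraries was not given. For each member and pool the intervals of both linker subsets overlapped. Such overlap does not show that the subsets are alike, and their difference was not tested. The widest split was that of Nr0b2 in JM11, with 14 ATGT ends at 6.80 (3.72 to 11.4) and 18 TAAG ends at 2.60 (1.54 to 4.11). Cyp8b1 in the same pool stood at 4.65 and 4.49.

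PET ends were not spread evenly along the genes. The start (1 kb either side of the gene start) was compared with the body (from 1 kb inside the start to 1 kb inside the end) for the 5 members longer than 3 kb whose strand is listed. In JM08 the start was at least 2 times as dense as the body in 4 of 5, where 54.1% of genes over 3 kb met this mark. In JM11 it was 4 of 5, against 39.4% of genes, and in JM12 5 of 5, against 52.4%. The member that missed the mark was Slc10a1 in JM08 and Abcb11 in JM11, and in JM12 the count includes Nr0b2, whose body held 0 ends, and Abcb4 at 2.34 (0.736 to 5.73). With starts of 2 kb either side, 2 of the 4 members long enough met the mark in JM08 and 2 in JM12.

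At Nr0b2, ends within 1 kb of the start numbered 19, 15 and 14 in JM08, JM11 and JM12, giving relative densities of 26.6, 6.94 and 11.1. Ends around its gene end numbered 14, 13 and 2, so that JM08 and JM11 showed density at both boundaries and JM12 at the start. The short body between them held 2, 1 and 0 ends, the last allowing a relative density of up to 4.47. The densest 500 bp bin of Nr0b2 began at the gene start in JM08 and JM12, with 10 and 7 ends. In JM11 it was the bin before the start, which holds the TATAAA at -28, with 7 ends against 5 in the bin after it.

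Slc10a1 combined a dense start with a dense body in JM08. Its start held 19, 16 and 11 ends (relative densities 26.6, 7.40 and 8.73) and its body 71, 27 and 27 ends (14.7, 1.85 and 3.17). Start over body was 1.81 (95% interval 1.03 to 3.04) in JM08, 4.01 (2.02 to 7.71) in JM11 and 2.75 (1.23 to 5.74) in JM12. Cyp27a1 showed a start of 11, 15 and 13 ends (15.4, 6.94 and 10.3) above a body of 46, 25 and 25 ends (5.67, 1.02 and 1.74). In JM11 the Cyp27a1 body was thus near the genome average while its start was 6.83 times as dense (3.35 to 13.5). The window also touches Prkag3, which overlaps it by 1.476 kb and held 0, 2 and 2 ends.

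The starts of the long transporter genes differed from each other. Abcb4 held 12, 18 and 5 start ends (16.8, 8.32 and 3.97) over a body at 1.98, 0.974 and 1.70. Abcb11 held 8, 3 and 9 start ends (11.2, 1.39 and 7.15) over a body at 1.48, 0.949 and 1.80. The start of Abcb11 therefore stood out in both dual-crosslinked pools, at 7.58 (3.12 to 16.0) and 3.97 (1.77 to 7.80) times its body, and in JM11 the ratio was 1.46 with an interval of 0.297 to 4.39.

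Cyp8b1 is 1.95 kb long and has no body by this definition. Its end (1 kb either side of the gene end) held 19, 14 and 15 ends against 10, 8 and 6 at its start. At this length the windows of start and end overlap inside the gene, so a PET end can count in both. From 1 to 2.5 kb beyond the gene end there were a further 15, 8 and 6 ends, at relative densities of 28.0, 4.93 and 6.35. The same stretch beyond the start, which runs upstream of the printed sequence, held 1, 4 and 0. Over all genes longer than 3 kb with a listed strand, the mean relative density of the flank beyond the end was 2.27, 1.14 and 1.65. Cyp8b1 is too short for that set, and genes of its length were not compared. Ackr2, the nearest protein-coding gene on that side, lies 3.281 kb away.

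For the 3 members with no listed strand, only the low- and high-coordinate boundaries can be named. Slc27a5 had 18, 18 and 13 ends within 1 kb of its high-coordinate boundary, at relative densities of 25.2, 8.32 and 10.3, or 7.06, 14.1 and 7.29 times its body. Its low-coordinate boundary held 4, 4 and 1. Cyp7a1 had 15, 4 and 4 ends at its high-coordinate boundary, 2, 2 and 4 at the other, and 27, 16 and 18 in its body. The boundary of Cyp7a1 was 2.23 times as dense as the body in JM08 (1.10 to 4.34) and 1.00 and 0.891 times in JM11 and JM12. Baat had 10, 1 and 4 ends at its low-coordinate boundary and 2, 0 and 1 at the other, and its body held 42, 23 and 14.

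**Figure D2:**
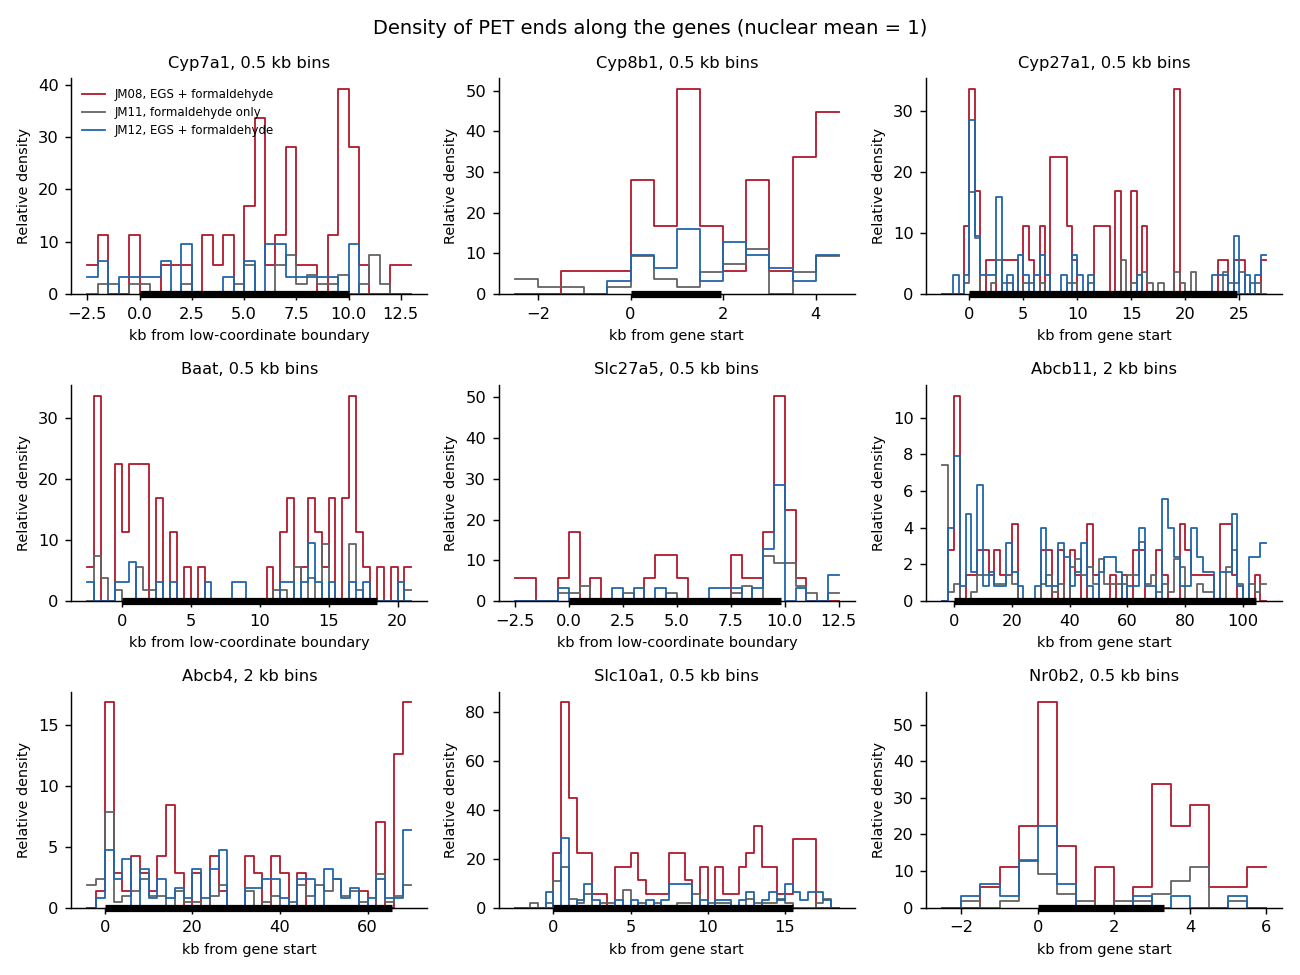
Relative density of PET ends (y axis, nuclear mean = 1) along each gene and its 2.5 kb flanks, by distance in kb from the gene start or, where no strand is listed, from the low-coordinate boundary; black bars mark the gene and bins are 0.5 kb, or 2 kb for Abcb11 and Abcb4. Peaks at the start are seen for Cyp27a1, Slc10a1 and Nr0b2, Cyp8b1 is dense through and beyond its end, and Slc27a5 peaks at its high-coordinate boundary.

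Dual and single crosslinking were compared as the ratio of relative densities of JM08 and of JM12 over JM11. Crosslinking and experiment cannot be told apart, and an exact permutation test of 2 pools against 1 cannot go below a two-sided p of 0.333, so the ratios are described with exact conditional 95% intervals. JM08 exceeded JM11 at all 9 genes, from 1.65 (1.19 to 2.26) at Abcb11 to 6.43 (4.55 to 9.19) at Slc10a1, with a median of 3.79. The ratio was at least 2 at 8 of 9 members and at 31.8% of genes with 10 or more ends in each pool, whose median was 1.36. Baat followed Slc10a1 at 6.16 (3.95 to 9.80) and Cyp7a1 stood at 5.02 (3.10 to 8.25). JM12 over JM11 was at least 2 at none of the 9 members, against 15.2% of genes. Its member median was 1.45 beside 1.30 over genes, and the highest value was 1.98 (1.54 to 2.57) at Abcb11. The ratio of JM12 was above 1 at all 9 members, from 1.07 at Nr0b2 upward, and the interval lay above 1 at 4 of them, Cyp27a1, Abcb11, Abcb4 and Slc10a1.

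JM08 exceeded JM11 at the starts of the members about as much as at the starts of all genes, and over bodies the members stood higher. Summed over the 5 members with a listed strand and a body, JM08 over JM11 was 3.12 (2.20 to 4.44) at starts, beside 3.22 over all genes longer than 3 kb. Over bodies it was 2.94 (2.43 to 3.56), beside 0.985 over all genes. Single bodies ranged from 1.56 at Abcb11 and 2.04 at Abcb4 to 5.58 at Cyp27a1 and 7.97 at Slc10a1. Of the members without a listed strand, the bodies of Cyp7a1, Baat and Slc27a5 stood at 5.12, 5.54 and 6.07. JM12 over JM11 was 1.80 (1.49 to 2.17) over the summed bodies, beside 1.07 over all genes, and 1.33 (0.909 to 1.94) over the summed starts, beside 1.81. In both dual-crosslinked pools the members' summed bodies were thus above the ratio for all genes. The sums over all genes had no minimum of ends, and bodies of other liver genes were not compared. Over whole genes, Alb stood at 103 in JM08 and 9.05 in JM11, and Scp2 at 7.53 and 0.863. A higher density in JM08 than in JM11 was therefore not particular to the members.

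**Figure D3:**
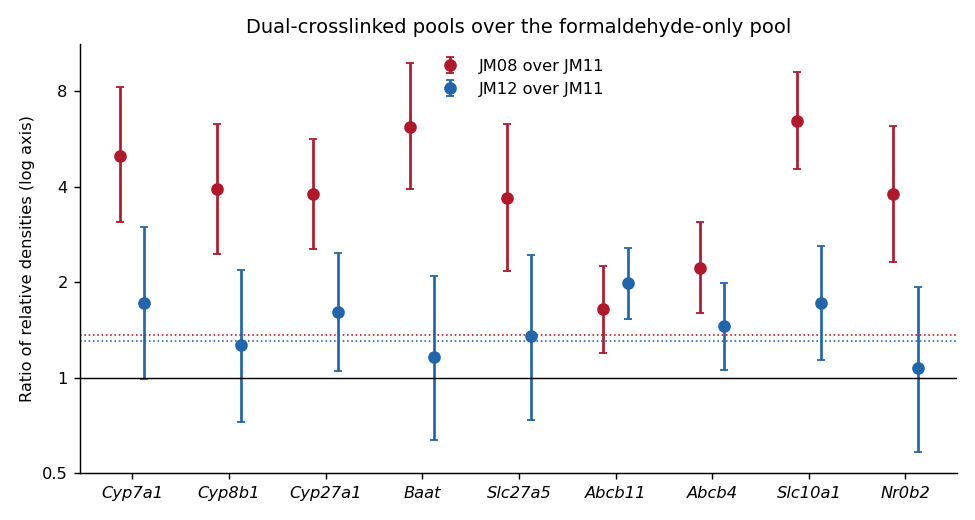
Ratio of relative densities (y axis, log scale) of JM08 and of JM12 over JM11 at each gene, with exact conditional 95% intervals; dotted lines mark the median over genes with 10 or more ends in each pool, 1.36 and 1.30. JM08 ratios exceed 2 at 8 of 9 genes, and JM12 ratios at none.

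Most PETs on the members joined different chromosomes, as in the whole table. Their share was 73.6% in JM08 (exact Clopper-Pearson 95% interval 69.2% to 77.6%), 85.2% in JM11 and 81.3% in JM12, beside 73.1%, 88.7% and 80.2% of all nuclear PETs. PETs with ends at most 8 kb apart, a class that can hold both ends of a single fragment, made up 20.05% (16.4% to 24.1%) in JM08, 9.57% (6.92% to 12.8%) in JM11 and 11.5% (8.45% to 15.1%) in JM12. The corresponding shares of all nuclear PETs were 22.5%, 6.23% and 14.8%. Among PETs with an end over any protein-coding gene or its 2.5 kb flanks, they were 20.4%, 5.12% and 11.9%. With this class alone, the median ratio over JM11 was 1.68 for JM08 and 0.673 for JM12. These medians rest on 88, 40 and 44 PETs over the 9 members in JM08, JM11 and JM12.

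Far ends were few. Of 78 member PETs over 8 kb on 1 chromosome, 71 reached beyond 1 Mb and 7 stayed within it, 3 in JM08, 0 in JM11 and 4 in JM12. No PET joined 2 members. At least 1 PET of 8 kb to 1 Mb was found at 3 of 9 members, against 22.3% of genes, and at least 3 at 2 members, against 1.40% of genes. Those 2 members, Cyp7a1 and Nr0b2, reached 3 only with the flank and the 8 kb minimum. With no flank, or from 20 kb on, neither kept 3. These counts are too small for a test.

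Cyp7a1 had 3 such PETs, all to the low-coordinate side. They spanned 12.564 kb and 14.754 kb in JM08 and 17.322 kb in JM12, and their far ends lay 6.773, 3.764 and 7.094 kb below the gene. The near ends of 2 of them lay just outside the high-coordinate boundary, and the other lay in the body. The stretch that holds the 3 far ends (chr4:6258018-6262348) carried 7, 6 and 6 PET ends, a relative density of 4.53 (1.82 to 9.34) in JM08, 1.28 (0.470 to 2.79) in JM11 and 2.20 (0.807 to 4.79) in JM12. It includes the PETs' own ends. The nearest other protein-coding genes, Ubxn2b and Sdcbp, lie 45.824 and 90.048 kb from Cyp7a1.

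Nr0b2 also had 3, each with its near end close to the gene start. In JM12, PETs of 17.016 kb and 30.998 kb ran to the high-coordinate side, ending 4.353 kb from Gpatch3 and inside Gpatch3. In JM08, a PET of 666.993 kb ran the other way and ended 1.958 kb from Stx12. Baat had 1, in JM12, of 95.342 kb, which ended 0.036 kb outside Acnat2, a related acyltransferase gene in the same cluster. The other 6 members had none.

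**Figure D4:**
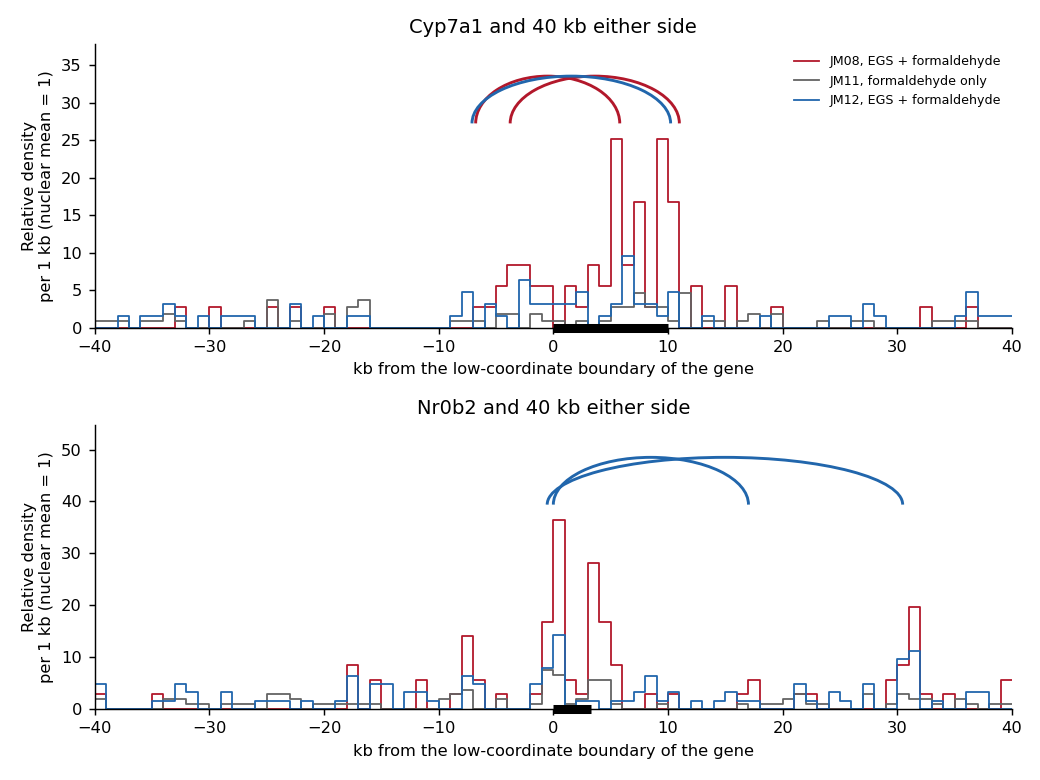
Relative density of PET ends in 1 kb bins (y axis, nuclear mean = 1) by distance in kb from the low-coordinate boundary of Cyp7a1 and of Nr0b2, with arcs for PETs between 8 and 40 kb in the colour of their experiment and a black bar for the gene. The 3 arcs of Cyp7a1 end within 7.094 kb below the gene, and the arcs of Nr0b2 begin at or just below its low-coordinate boundary.

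Other genes of bile acid metabolism were taken from 4 lists by role, 42 genes in all. Of these, 30 were raised in JM08, against 27.0% of all genes, 2 in JM11, against 6.03%, and 25 in JM12, against 24.1%. The JM11 count is no higher than that share, and the counts of each list compare with the same 3 shares. Hsd3b7 and Nr1i3 were raised in all 3, where the share of all genes was 5.02%. Among 13 further genes of synthesis and conjugation, 9 were raised in JM08, 1 in JM11 and 5 in JM12. Genes are ordered here by their geometric mean over the 3 pools, and the order differs within single pools. Hsd3b7, the sterol dehydrogenase that acts after Cyp7a1, came highest at 22.2, 3.95 and 7.36, then Amacr (7.34, 1.86 and 4.08) and Slc27a2 (7.18, 1.72 and 3.99). Cyp46a1 (0.936, 0.870 and 1.30) and Cyp39a1 (1.01, 0.883 and 1.21) came lowest. Among 12 further transporters, 7, 0 and 6 were raised. Abcc2, the canalicular export pump MRP2, came highest by the same measure at 9.10, 1.70 and 3.54, then Slco1b2 (5.28, 1.09 and 2.14) and Slco2b1 (3.16, 1.44 and 2.12). Slco1a4 (1.61, 0.977 and 1.05) and Slc51a (0.810, 0.962 and 1.56) came lowest.

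Among 14 regulators, all 14 were raised in JM08, against 27.0% of genes, 1 in JM11, against 6.03%, and 13 in JM12, against 24.1%. By geometric mean Nr1i3, the receptor CAR, came highest at 14.7, 4.48 and 5.45, then the clock repressor gene Nr1d1 (13.5, 1.78 and 4.59) and Mafg (11.2, 1.43 and 5.46), which was marginally above Nr1i3 in JM12. Nr5a2 (2.12, 1.09 and 2.17) and Klb (2.51, 1.10 and 1.46) came lowest. The 3 intestinal genes Fgf15, Slc10a2 and Fabp6 were at 0.893, 1.24 and 0.533 in JM08, none raised there or in JM11, and Fgf15 was raised in JM12 at 2.02 with 12 ends. Medians of the members, of further synthesis genes, transporters, regulators and intestinal genes were 7.52, 4.15, 2.81, 5.20 and 0.893 in JM08, 1.74, 0.936, 1.02, 1.39 and 1.20 in JM11, and 2.40, 1.91, 1.96, 3.39 and 1.06 in JM12. The highest median was that of the members in JM08 and JM11 and that of the regulators in JM12.

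**Figure D5:**
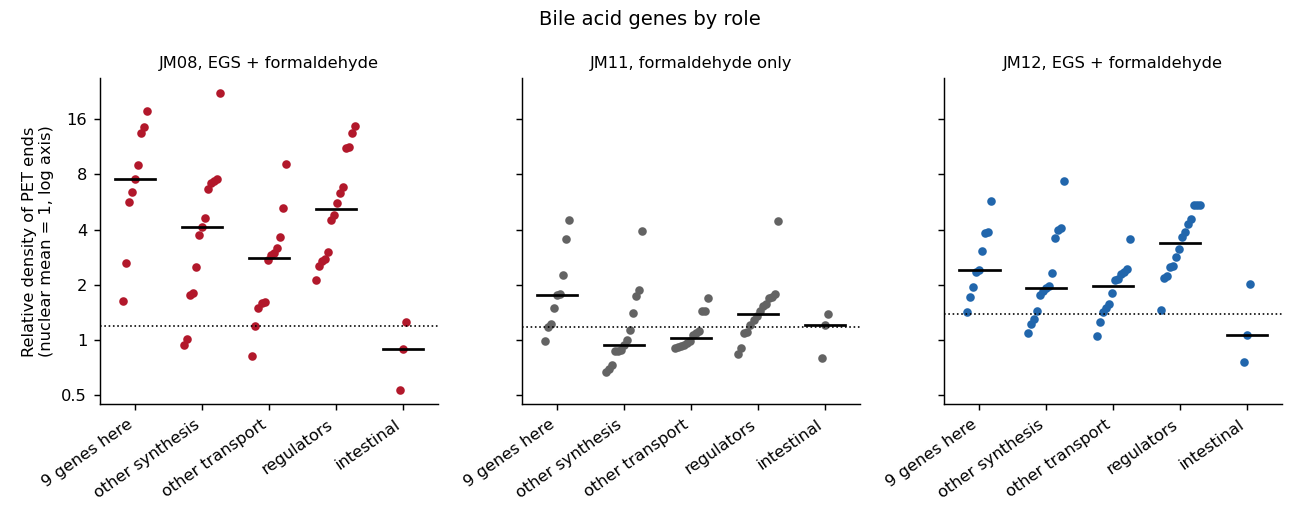
Relative density of PET ends (y axis, log scale, nuclear mean = 1) of the 9 genes and of the 4 lists of other bile acid genes in each experiment; each point is a gene, bars are list medians and the dotted line is the median protein-coding gene. All 14 regulators lie above 2 in JM08, where the 3 intestinal genes lie between 0.533 and 1.24.

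The genes whose profile over the 3 pools lay nearest to the members' median were Urad, Psmb6, Rcl1, Cbr1 and Spata24, by Euclidean distance of log2 relative density among 12819 genes with 10 or more ends in each pool. Their distances ran from 0.0498 to 0.145. Urad, the nearest, was at 7.43, 1.71 and 2.29.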

How the data were processed

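Chromatin contacts of Pol II were measured by ChIA-PET in 8 mouse liver libraries. The deposited table lists PETs, and the authors gave for each its experiment, linker and the chromosome and position of both ends, with no unit of expression. Per the submitters' processing notes, Bowtie2 and mm10 were used. Their roles, the filters and any removal of duplicates were not given in the sources used here. Of 2753554 PETs, 2265 with a mitochondrial end were set aside.

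Gene spans came from RefSeq GRCm38.p6, and starts and strands from its promoter table. Ends were counted over each gene and 2.5 kb either side with Python 3.11.15, numpy 2.4.6, pandas 2.3.3 and scipy 1.17.1, and figures drawn with matplotlib 3.10.9. The nuclear mean was taken over 2661.31 Mb. Contacts were PETs of 8 kb to 1 Mb with 1 end over the gene. The counting was tested on simulated data. The members and lists were chosen with earlier results of these data known.

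Named are the 9 members, the 3 highest and 2 lowest genes of each role list by the geometric mean over experiments (with 0.5 added to the ends), the 5 nearest profiles, and genes that overlap a window or hold a far end. Neighbours of Cyp7a1 and Cyp8b1, the Abcb4 paralog Abcb1b and marker genes were named besides. Alternatives covered the flank, near-duplicates within 2 bp, shared positions, distance class, reference density, linker, fold, window sizes and each experiment left out.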

Additional observations from a re-analysis of the deposited data

Results flagged for a closer look

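PETs that touched mitochondrial DNA, which no comparison used, numbered 12 in JM08, 14 in JM11 and 2239 in JM12. Of these, 1 PET of JM12 and none of JM08 or JM11 had its other end over a bile acid gene.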

How the results depend on the processing

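Of 460 values for 41 results under the alternatives tried, 397 were labelled the same as the main value and 62 were labelled moved. Counts were given no error interval, so for them the label does not mean that a value kept within error. A fall in the members raised in all pools from 3 to 2, with a 5 kb flank, was labelled the same. The remaining 1 of the 460, Cyp7a1 in JM12, was labelled as changing direction, from 3.07 to 0.716 with PETs at most 8 kb apart only. Cyp7a1 had 1 PET of that class in JM12, too few to show a change of direction. Values that crossed 1 from a main value below 2 did not get that label. Among these was the median ratio of JM12 over JM11, at 1.45 with all PETs and 0.673 with PETs at most 8 kb apart only. The causes were not tested. With PETs at most 8 kb apart only, Cyp7a1 in JM12 was at 0.716 from 1 PET, and the member median was 10.1 in JM08 and 3.95 in JM11. The median ratio to JM11 was 1.68 for JM08 and 0.673 for JM12, and 5 members were raised in all 3 pools. The 9 members together held 88, 40 and 44 PETs of this class in JM08, JM11 and JM12, so values of single members rest on few PETs. This distance class also moved 19 of 27 values of single members. The number raised in all pools was 5 at a fold of 1.5, 1 at a fold of 4, 5 with linker ATGT, 2 with linker TAAG, 2 with a 5 kb flank, 2 with the median protein-coding gene as reference (Slc10a1 was lost in these last 3) and 6 without experiment JM11, and it was 3 without JM08 and 3 without JM12. Other pathway genes raised in all pools numbered 10 at a fold of 1.5 and 1 at a fold of 4. The share of all genes was not computed under any alternative, so these counts have no background beside them. With the median protein-coding gene as reference the member median in JM12 was 1.73. With starts of 2 kb either side, 2 members had a start at least 2 times the body in JM08 and 2 in JM12, of 4 long enough. Contacts of 8 kb to 1 Mb numbered 3 from 20 kb on and 4 with no flank. The references chosen after seeing the data, occupied 10 kb bins and the region 50 to 150 kb away, gave 3 and 4 members raised in all pools.

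No paired analysis was possible because no column names a library, so the replicate numbers of the labels cannot be tied to PETs. With 20 to 134 ends per member and pool, differences between neighbours in the order were mostly not detectable at this depth, and 7 contacts allow no comparison between pools.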
